A study of Mus musculus with 6 samples.

Results

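The 10 genes described here are apolipoprotein genes or genes linked to cholesterol export from macrophages and its control. They are the apolipoprotein genes Apoe, Apoc1 and Apoc2, the sterol hydroxylase gene Cyp27a1, the liver X receptor (LXR) genes Nr1h3 and Nr1h2, the transporter genes Abca1, Abcg1 and Abca9, and the LXR target gene Mylip. They were chosen from the pathway with earlier results of these same arrays known, Apoe, Apoc1, Cyp27a1 and Nr1h3 among them. The differences between groups of all members are therefore given as a description, without a test of their own. Platform annotation named 18 probes for 9 of the 10 genes, out of 19057 genes with a named probe, and Nr1h2 had no named probe and was not analysed here.

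Expression was measured in monocytes and macrophages obtained from mouse bone marrow by magnetic separation, with 1 single-colour Illumina bead array per mouse. All 6 mice were BALB/c Rag2-/-γc-/- animals aged 11 weeks, a host that lacks T, B and NK cells in both groups and so accepts human cells. Mice A, B and C were untreated controls, and mice D, E and F had been injected intravenously with MEC1, a single established human cell line from chronic lymphocytic leukaemia. Material labelled day 21, at an early stage of leukaemia, was compared to ask how marrow monocytes and macrophages differ in the presence of the leukaemic cells.

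Macrophages take up large amounts of cholesterol with dying cells and cannot break down its ring system, so the surplus has to leave the cell. CYP27A1 hydroxylates the side chain of cholesterol in mitochondria, and the resulting oxysterols bind LXR alpha, encoded by Nr1h3, and LXR beta, encoded by Nr1h2. The receptors then act with RXR on genes such as Abca1 and Abcg1, whose proteins move cholesterol to lipid acceptors, on the Apoe gene cluster, and on Mylip, whose product marks the LDL receptor for degradation.

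A shared layout of genes is part of the background. In GRCm38.p6, Apoe (chr7:19696244-19701310), Apoc1 (chr7:19689480-19692659) and Apoc2 (chr7:19671579-19677941) lie in 1 cluster on chromosome 7, and the annotated gene Gm44805 (chr7:19671579-19681460) spans Apoc2, so their signals could not be separated by name. Cyp27a1 lies at chr1:74713148-74737897, Nr1h3 at chr2:91184061-91202829, Abca1 at chr4:53030789-53159988, Abcg1 at chr17:31057694-31117984, Abca9 at chr11:110100749-110168274 and Mylip at chr13:45389742-45411940. The positions of the probes within these genes were not analysed here.

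Upstream sequence from the RefSeq promoter table is shown for Apoe, Cyp27a1 and Abca9, because these genes on different chromosomes were low in the same mice. Each run is the 250 bases before an annotated start, read 5′ to 3′ on the strand of the gene, in build GRCm38.p6. They are chr7:19699189-19699438 on the minus strand for Apoe (the most upstream of 3 starts in the table), chr1:74713285-74713534 on the plus strand for Cyp27a1 and chr11:110168154-110168403 on the minus strand for Abca9. All 3 windows lie at least partly inside the annotated span of their gene. Capitals mark matches on either strand to the nuclear receptor motif AGGTCA, the TATA box TATAAA, the GC box GGGCGG or the PU.1 core GAGGAA.
Apoe: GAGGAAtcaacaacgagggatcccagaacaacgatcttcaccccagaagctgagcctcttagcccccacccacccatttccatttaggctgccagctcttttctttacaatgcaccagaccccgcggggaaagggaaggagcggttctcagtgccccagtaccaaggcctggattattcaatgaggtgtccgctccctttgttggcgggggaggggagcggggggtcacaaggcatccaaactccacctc
Cyp27a1: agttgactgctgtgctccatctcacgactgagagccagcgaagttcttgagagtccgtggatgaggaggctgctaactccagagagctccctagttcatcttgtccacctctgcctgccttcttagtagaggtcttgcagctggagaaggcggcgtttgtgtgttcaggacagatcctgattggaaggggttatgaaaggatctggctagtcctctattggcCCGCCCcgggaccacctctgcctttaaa
Abca9: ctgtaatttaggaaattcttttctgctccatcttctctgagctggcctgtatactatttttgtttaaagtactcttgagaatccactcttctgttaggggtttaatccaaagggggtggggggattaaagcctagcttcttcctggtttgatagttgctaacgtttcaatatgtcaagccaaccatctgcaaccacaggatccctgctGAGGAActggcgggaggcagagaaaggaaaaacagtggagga
The Apoe window held 1 PU.1 core at its far end, 250 bases before the start, the Cyp27a1 window 1 GC box on the minus strand 28 bases before the start, and the Abca9 window 1 PU.1 core 42 bases before it. Among all 32851 windows of this length in the table, 23.3% held the PU.1 core, 32.7% the GC box, 12.4% the TATA box and 14.0% the nuclear receptor motif. An LXR element is built from 2 copies of that motif spaced by 4 bases (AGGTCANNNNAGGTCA), and with up to 1 mismatch in each copy it was found in 1.48% of all windows and in 0 of the 11 starts of the 8 members in the table. A single copy was found before 1 of the 11 starts, that of Apoc2, 115 bases upstream. These matches describe letters in 250 bases only, and no window shown holds matches that overlap.

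Levels are given as log2 intensities after background correction and quantile normalization, a scale on which a difference of 1 is a doubling and on which the dimmest detected probe of an array lay between 5.61 and 5.83. A probe is called detected on an array when its deposited detection p-value was under 0.05. Between 15545 and 16976 of 45281 probes were detected on an array, and median raw intensity was 114 to 131 on control arrays and 70.7 to 87.6 on MEC1 arrays. Of the 18 member probes, 13 probes of 7 genes were detected on at least 3 of 6 arrays and were tested in a limma fit over 16460 probes, and the other 5 were not. A probe is called when its Benjamini-Hochberg adjusted p over all tested probes was under 0.05. With 3 mice in each group, precision is limited by the number of arrays and by the spread between mice.

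Among the tested members, 12 of 13 probes were lower in MEC1 mice and 7 were called lower, belonging to Apoe, Apoc1, Cyp27a1 and Abca9. Over all 16460 tested probes, 110 (0.668%) were called lower and 143 (0.869%) higher, and no member probe was called higher. Of the 13 tested member probes, 9 were lower without overlap between groups, against 2188 (13.3%) of all 16460 tested probes. The median log2 change of the 13 member probes was -1.52 and that of all tested probes -0.02. Since the same difference entered the choice of the genes, nothing is read from these counts. In bulk RNA, fewer cells that express a gene and less of its RNA per cell cannot be told apart.

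**Figure D1:**
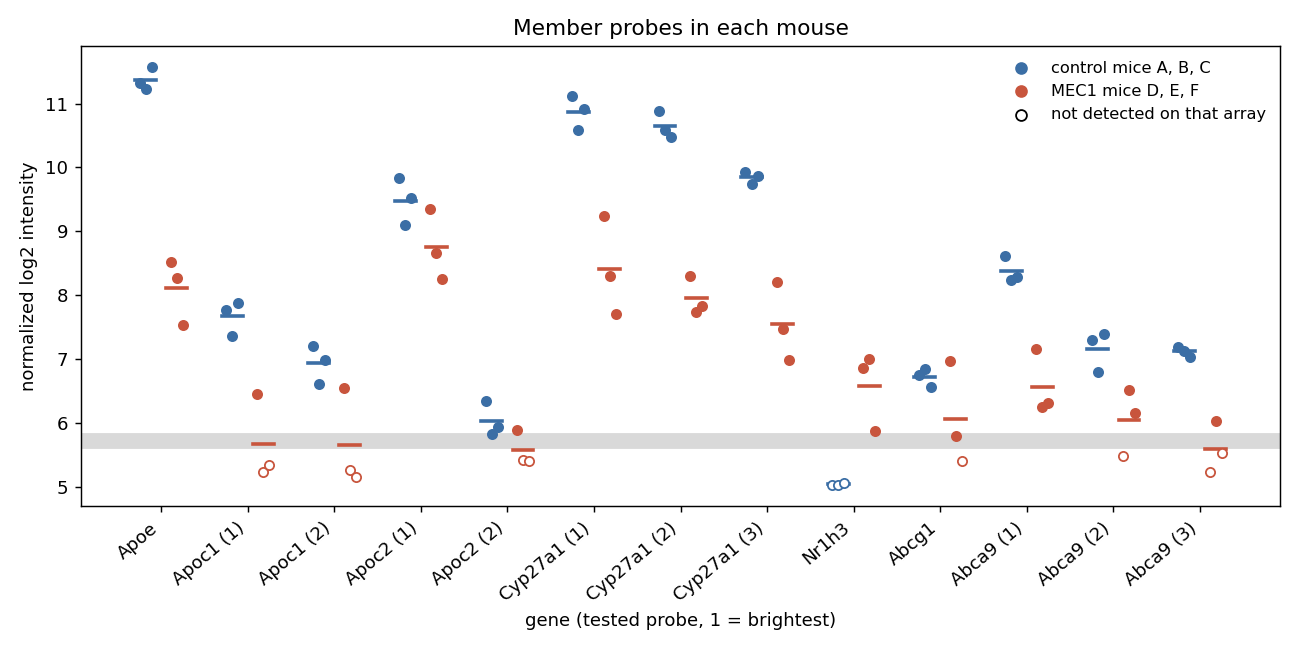
Normalized log2 intensity (y axis) of the 13 tested member probes (x axis, numbered from the brightest within a gene) in control mice A, B and C (blue) and MEC1 mice D, E and F (red), in that order from left to right. Short lines are group means, open points arrays on which the probe was not detected, and the grey band the dimmest detected level of the 6 arrays (5.61 to 5.83). Apoe and the 3 Cyp27a1 probes lay between 9.74 and 11.57 in the control mice and between 6.98 and 9.23 in the MEC1 mice, while Nr1h3 was undetected in the controls.

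Apoe encodes apolipoprotein E, which macrophages secrete and which takes up cholesterol leaving the cell. Its single probe (ILMN_1216042) gave control log2 intensities of 11.32 (A), 11.23 (B) and 11.57 (C), against 8.52 (D), 8.28 (E) and 7.53 (F) after MEC1 injection, or 11.38 ± 0.18 against 8.11 ± 0.52 (SD, n = 3 each). The lowest control mouse lay 2.71 above the highest MEC1 mouse, the widest gap of the 13 tested member probes. The log2 change was -3.27 ± 0.26 (SE), and the probe was detected on all 6 arrays. Before any normalization, intensity was 3519, 3324 and 3873 in the controls and 366, 192 and 199 in the MEC1 mice, a ratio of group means of 14.1 on arrays whose background also differed.

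Apoc1 encodes apolipoprotein C1, a small protein of lipoprotein particles. The brighter of its 2 probes (ILMN_2599794) gave 7.77, 7.36 and 7.88 in the controls and 6.46, 5.23 and 5.34 in mice D, E and F, with a log2 change of -1.99 ± 0.37 (SE), and was called. The second probe (ILMN_1228469) gave 7.21, 6.62 and 6.98 against 6.54, 5.26 and 5.16, a log2 change of -1.28 ± 0.39 (SE), and was not called. Both probes were detected in mouse D alone among the MEC1 mice, so the changes are measured partly against undetected signal. In the second probe mouse D lay 0.07 below the lowest control.

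Apoc2 encodes apolipoprotein C2, the cofactor of lipoprotein lipase. Its brighter probe (ILMN_2647820) gave 9.84, 9.10 and 9.52 in the controls and 9.34, 8.66 and 8.26 in the MEC1 mice, a log2 change of -0.73 ± 0.30 (SE). The dimmer probe (ILMN_2880540) gave -0.46 ± 0.26 (SE) and was detected on 1 of 3 MEC1 arrays. In both probes the groups overlapped through mouse D, and neither was called. The 3 neighbours of the cluster thus had log2 changes of -3.27, -1.99 and -0.73 at their brightest probes, and a test of the differences between them was not made.

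Cyp27a1 gave the same picture on 3 separate probes, all detected on 6 of 6 arrays and all called. The brightest (ILMN_2960108) gave 11.11, 10.59 and 10.92 in the controls and 9.23, 8.31 and 7.70 in the MEC1 mice, a log2 change of -2.46 ± 0.36 (SE). The second (ILMN_2960114) gave 10.89, 10.58 and 10.47 against 8.30, 7.75 and 7.84, or -2.69 ± 0.22 (SE). The dimmest (ILMN_2620326) gave 9.93, 9.74 and 9.87 against 8.21, 7.47 and 6.98, or -2.29 ± 0.30 (SE). The estimates of the 3 probes differed by at most 0.39 on the log2 scale, and no probe had a MEC1 mouse within the range of the controls.

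Abca9 encodes an ABC transporter of subfamily A whose expression in human macrophages is known to respond to cholesterol loading. The brightest of its 4 probes (ILMN_1253984) gave 8.62, 8.23 and 8.29 in the controls and 7.16, 6.25 and 6.31 in the MEC1 mice, a log2 change of -1.81 ± 0.31 (SE), was detected on all arrays and was called. Another probe (ILMN_2699881) gave 7.20, 7.14 and 7.04 against 5.24, 6.03 and 5.54, or -1.52 ± 0.28 (SE), and was called with 1 of 3 MEC1 arrays detected. A further one (ILMN_2699880) gave 7.30, 6.80 and 7.40 against 5.49, 6.52 and 6.16, or -1.11 ± 0.34 (SE), and was not called. Probe ILMN_1257283 was detected on no array. The order of the MEC1 mice differed between these probes, with mouse D highest in the brightest and lowest in the other 2 tested ones.

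Abcg1, the transporter that passes cholesterol to high-density lipoprotein and a standard LXR target, had 1 probe (ILMN_2441335). It gave 6.76, 6.85 and 6.56 in the controls and 6.97, 5.81 and 5.41 in mice D, E and F, a log2 change of -0.66 ± 0.39 (SE) that was not called. Mouse D lay above all 3 controls, and mice E and F lay below them. The probe was detected on 2 of 3 MEC1 arrays.

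Nr1h3 was the 1 tested member with a higher signal in MEC1 mice. Its brighter probe (ILMN_2663374) was detected on no control array, at 5.04, 5.02 and 5.06, and on all 3 MEC1 arrays, at 6.870, 6.997 and 5.877. Taking each control array at its dimmest detected level, the signal was 1.86-fold higher in MEC1 mice on this normalized scale. This is not a minimum over settings. The fitted log2 change was 1.54 ± 0.32 (SE), and the probe was not called. Without background subtraction the log2 change was 0.80, and with the authors' series matrix values 0.84. Raw intensity was 124, 108 and 111 in the controls and 147, 115 and 112 in the MEC1 mice, so the groups overlapped on the unnormalized scale, where the median of the MEC1 arrays was lower. The part of this offset in the normalized difference was not tested. The second Nr1h3 probe (ILMN_2668472) was detected on no array.

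Abca1 and Mylip gave no tested probe. The Abca1 probe (ILMN_1226851) was not detected on any of the 6 arrays, at 4.64 to 4.71, although Abca1 is a standard LXR target of macrophages, and its level was not measured. Of the 2 Mylip probes, ILMN_2735102 was detected on no array and ILMN_2590339 on that of mouse E alone, at 6.38 against 4.83 to 5.23 in the other 5 mice.

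**Figure D2:**
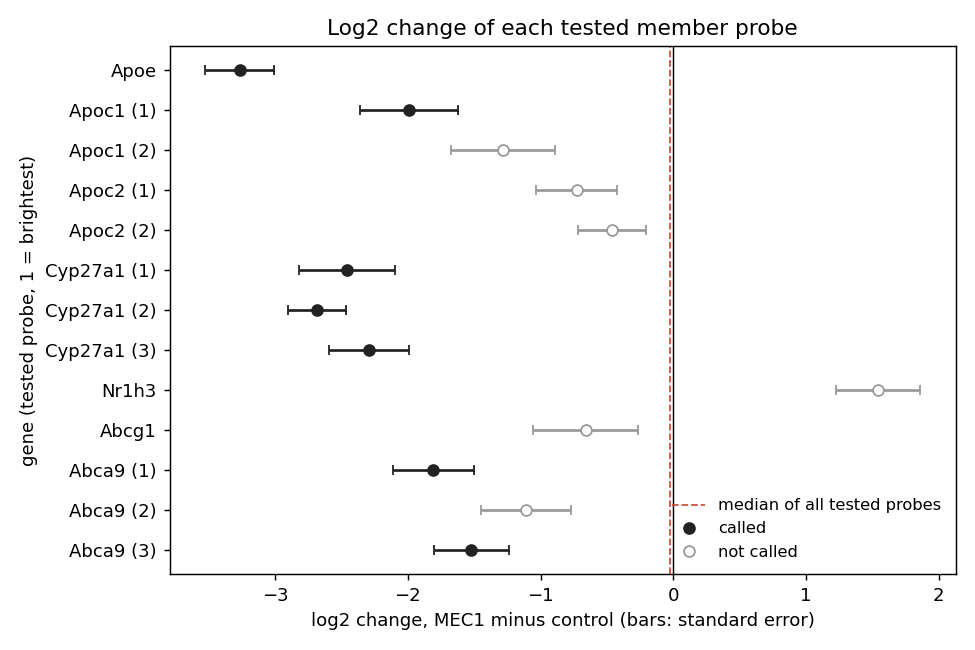
Log2 change, MEC1 minus control (x axis), of each tested member probe (y axis, numbered from the brightest within a gene), with bars for the standard error of the limma fit. Filled points are called and open points are not, and the dashed line is the median of all tested probes (-0.02). The 3 Cyp27a1 probes lay between -2.69 and -2.29, and Nr1h3 was the 1 probe above 0.

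The 3 MEC1 mice were not alike. Mouse D had the highest level of the 3 in 10 of the 12 lower member probes, the exceptions being 2 probes of Abca9. Relative to the mean of the controls, Apoe stood at -2.85 in mouse D, -3.10 in E and -3.85 in F on the log2 scale, and the brighter Apoc1 probe at -1.21, -2.43 and -2.33. Over the 13 tested member probes the median difference was -1.22 in mouse D, -1.67 in E and -1.77 in F, where all tested probes had medians of 0.06, -0.04 and -0.0029. The array of mouse D correlated least with those of the other MEC1 mice, at Pearson's r of 0.923 with E and 0.933 with F across probes against 0.967 between E and F. It also correlated least with the control arrays, at 0.926 to 0.935, against 0.939 to 0.940 for E and 0.956 to 0.971 for F.

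Each mouse was left out in turn. Without control mouse A, B or C, 2 member probes were called each time, those of Apoe and the Cyp27a1 probe ILMN_2960114, while the log2 change of the brighter Apoc1 probe was -1.92, -2.10 and -1.85 and that of Cyp27a1 ILMN_2960108 -2.35, -2.60 and -2.45. Without mouse D 11 member probes were called, 10 lower and Nr1h3 higher, without E 3, all lower, and without F 5, of which 4 were lower and Nr1h3 higher. Over all probes the count of calls was 253 with all 6 mice, 5 without A, 9 without B, 9 without C, 1210 without D, 67 without E and 135 without F. Controls occupied the first 3 positions of the chip and MEC1 mice the last 3. With position as a covariate limma called 0 member probes, with Apoe at -2.71. At an unadjusted p under 0.05, that limma fit gave 6 of 13 member probes and 2397 of all 16460 tested probes. Median scaling instead of quantile normalization shifted the median of all tested probes to -0.48, turned the split of calls from 110 lower and 143 higher to 1981 lower and 130 higher, and called 11 member probes.

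**Figure D3:**
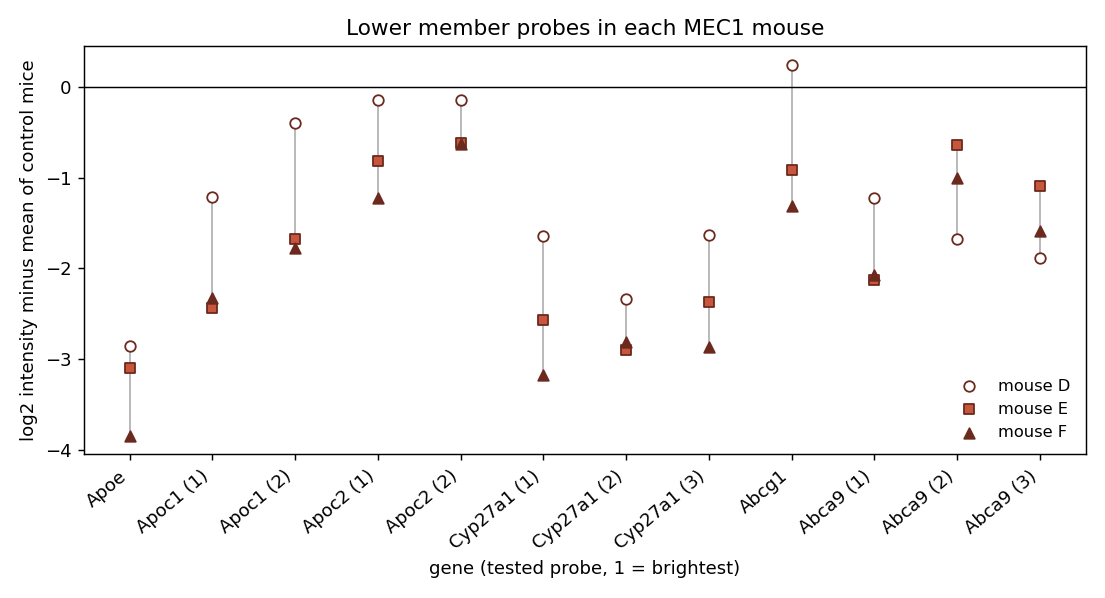
Log2 intensity of each MEC1 mouse minus the mean of the 3 control mice (y axis) for the 12 tested member probes with a lower mean in MEC1 mice (x axis). Open circles are mouse D, squares mouse E and triangles mouse F, and grey lines span the 3 mice. Mouse D lay highest in 10 of 12 probes, and above 0 for Abcg1.

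Genes whose level followed that of Apoe most closely over the 6 mice were sought by the root mean square difference of log2 profiles centred on their own mean, among 9089 tested genes with 1 probe each. This is a description, since 2 groups of mice underlie each profile. The members were chosen with the difference between these groups known, so nothing is read from the ranks of members for Apoe or for Cyp27a1. Foxq1, a forkhead transcription factor gene, was nearest, at 0.19, and was undetected in all MEC1 mice. Cyp27a1 came second at 0.48, Hpgd, which inactivates prostaglandins, next at 0.58, and Apoc1 after it at 0.71. Zfp280d, Flt1, Ifit3 and Thbs1 followed at 0.71 to 0.77, and Abca9 stood at rank 10. Hpgd and Flt1 were likewise undetected in all MEC1 mice.

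For Cyp27a1 the nearest gene was Apoc1, at 0.33, followed by Cgnl1 at 0.38, Stard9 at 0.40 and Abca9 at 0.40. Metrnl, Flt1, Irf4 and Zfp280d followed at 0.46 to 0.47, and Apoe stood at rank 9. Apoc2 and Abcg1 stood at ranks 139 and 215 for Cyp27a1 and at 286 and 472 for Apoe, and Nr1h3, which went the other way, at 8989 and 9015 of 9089.

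The wider pathway outside the members showed few calls. Of 87 other genes in 7 lists on LXR targets, oxysterol enzymes, receptor partners, apolipoproteins, transporters, apolipoprotein receptors and intracellular cholesterol, 38 were tested, and 1 was called lower, 0 higher. Over all 9089 tested genes, 72 (0.792%) were called lower and 86 (0.946%) higher. At an unadjusted p under 0.05, limma gave 5 of the 38 genes, and 3265 of all 16460 tested probes. The median log2 change of the 38 genes was -0.04, and that of all tested genes -0.0041.

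Among LXR targets, Smpdl3a, which encodes a secreted phosphodiesterase, was the gene called lower, with 1 lower, 0 higher and 7 of 8 tested genes not called. It gave 12.56, 12.48 and 12.56 in the controls and 11.80, 11.72 and 11.997 in the MEC1 mice, a log2 change of -0.69 ± 0.12 (SE; limma adjusted p = 0.0346). The groups did not overlap, and the call was lost without control mouse A, B or C (log2 changes of -0.69, -0.73 and -0.69, limma adjusted p = 0.183, 0.177 and 0.202) and without MEC1 mouse E (-0.62, limma adjusted p = 0.0836). Pltp, the phospholipid transfer protein gene, was detected in each control mouse and in 0 of 3 MEC1 mice, and was not called (limma adjusted p = 0.197). With each MEC1 array taken at its dimmest detected level, Pltp was 1.14-fold lower in MEC1 mice, which is not a minimum over settings. The desaturase gene Scd1 gave a log2 change of -0.87 and the lipoprotein lipase gene Lpl -0.37. Changes of the 8 genes ran from -0.87 to 0.41 with a median of -0.20.

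Oxysterol enzymes other than Cyp27a1 gave 0 calls among 5 tested genes of 13, with a median log2 change of -0.32. Gpr183, a receptor for oxysterols on immune cells, gave 10.29, 10.14 and 9.60 in the controls and 9.51, 9.45 and 9.27 in the MEC1 mice, a log2 change of -0.60 ± 0.21 (SE; limma adjusted p = 0.181). Hsd3b7, an enzyme of oxysterol breakdown, gave -0.32 at its brighter probe and -0.20 at the other, Cyp39a1 gave -0.46 and Cyp11a1 0.22. No probe of Ch25h, which makes another oxysterol in macrophages, was tested.

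Of receptor partners and cofactors, 5 of 13 were tested and 0 were called, with changes of -0.28 to 0.22. Rxra, the usual partner of LXR, gave -0.21 and was detected on 2 of 3 MEC1 arrays, the nuclear receptor genes Ppard and Pparg gave 0.22 and -0.06, and the coactivator gene Ncoa6 -0.28. Among 12 other apolipoprotein genes 1 was tested, Apom, at 0.30 and not called. Of 15 other transporters of subfamilies A and G, 4 were tested and 0 were called, with Abcg4, a close relative of Abcg1, at -0.98 ± 0.46 (SE; limma adjusted p = 0.29), Abca3 at -0.37, Abca2 at 0.50 and Abca7 at -0.04. The other tested probes gave 0.09 and 0.06 for Abca3 and 0.23 and -0.45 for Abca7, and were not called.

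Receptors that bind apolipoprotein E gave 6 tested genes of 11, with 0 called at the probe that stood for the gene and a median log2 change of 0.23. Scarb1, the receptor that exchanges cholesterol with high-density lipoprotein, gave 6.67, 6.47 and 6.87 in the controls and 8.02, 8.14 and 7.18 in the MEC1 mice, a log2 change of 1.11 ± 0.31 (SE; limma adjusted p = 0.122). The groups did not overlap, and the gene was not called. Lrp8, an apolipoprotein E receptor, gave 0.55 at its brightest probe, -0.27 at ILMN_1249775 and 1.56 ± 0.31 (SE; limma adjusted p = 0.0496) at ILMN_2662779, which was detected on 1 of 3 control arrays and was singled out after its values were seen. Lrp1 gave -0.59 and its chaperone gene Lrpap1 0.16.

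In the list of lysosomal and intracellular cholesterol handling, 9 of 11 genes were tested and 0 were called. Npc1 and Npc2, whose proteins pass cholesterol out of lysosomes, gave -0.37 and -0.14, with the other 3 tested Npc1 probes at -0.50, 0.09 and -0.13. Osbp, an oxysterol-binding protein gene, gave 0.38 and the lysosomal membrane protein gene Scarb2 0.13. The 9 changes ran from -0.37 to 0.38 with a median of -0.09.

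**Figure D4:**
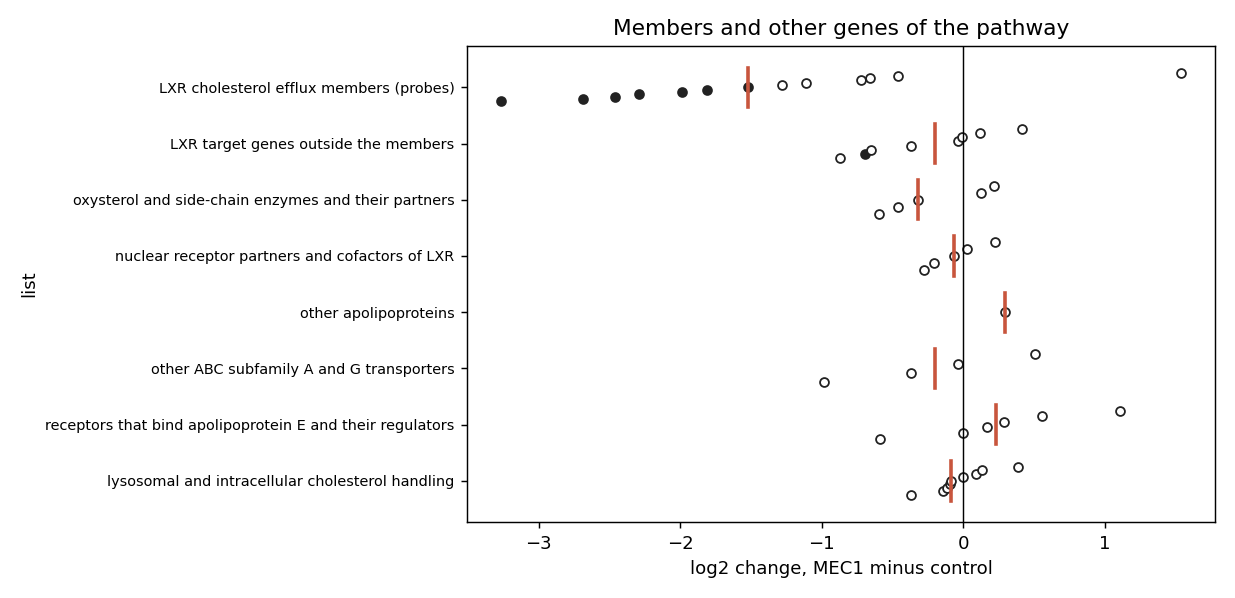
Log2 change, MEC1 minus control (x axis), of the 13 tested member probes (top row) and of the tested genes of 7 other lists of the pathway (1 point per gene), with filled points for calls and a vertical bar at the median of each row. The medians of the lists lay between -0.32 and 0.30, with 1 filled point, that of Smpdl3a. The members' median, over probes and not genes, was -1.52. Members were chosen with earlier results of these arrays known, so nothing is read from the difference between the top row and the lists.

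The preparations were checked against markers of the labelled cells and of other marrow cells, with the normalized intensities of a list summed in each mouse. The bone marrow macrophage list, 18 genes, summed to 5947 to 7468 in the controls and 5685 to 7608 in the MEC1 mice, with 1 of 8 tested genes called lower (Mrc1), 1 higher (Fcgr1) and a median log2 change of 0.22. Adgre1, Csf1r, Axl and Vcam1 were detected on every array, while Siglec1, Cd5l, Spic, Timd4 and Maf were detected on none and the complement genes C1qa, C1qb and C1qc on 1 each. The monocyte list, 9 of 10 genes with a probe, summed to 47966 to 51495 and 40126 to 45286, lower in each MEC1 mouse, with 0 of 8 tested genes called. Ly6c1 and F13a1, its brightest probes, gave log2 changes of -0.06 and -0.29. Cx3cr1 gave -0.83, Itgam -0.46, Cd14 -0.27 and Ccr2 -0.23, while Csf1r gave 0.25 and Vcan 1.02.

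The erythroid list, 7 of 10 genes with a probe, summed to 70371 to 86690 in the controls and 33808 to 61751 in the MEC1 mice, without overlap and with 0 of 6 tested genes called. Neutrophil markers summed to 83616 to 98497 and 93698 to 98424, with Mmp8 undetected, and eosinophil markers to 35343 to 40376 and 40011 to 45957. The eosinophil sum came mostly from Prg2, at mean log2 levels of 15.17 in controls and 15.29 in MEC1 mice, against 10.43 and 11.29 for Epx. Ccr3, Siglecf and Il5ra were undetected throughout. Endothelial markers summed to 663 to 836 and 667 to 1023, with Flt1 called lower and a median log2 change of 0.32 over 7 tested genes. Kdr gave 0.76, Cdh5 0.49, Pecam1 0.41, Tek 0.32 and Eng 0.05, while Stab2 gave -0.50 and Flt1 -1.93. Stromal and osteoblast markers summed to 459 to 1423 and 501 to 582, with Lepr, Kitl, Col1a2 and Pdgfrb undetected throughout. Bglap gave -2.64 and Col1a1 -1.13, each detected on 3 control arrays and 1 MEC1 array. Cxcl12 and Sparc gave 0.30 each, and 0 of these 4 tested genes were called. Adipocyte markers summed to 119 to 129 and 118 to 158, with Adipoq, Fabp4, Plin1 and Cidec undetected, and B lineage markers to 519 to 556 and 511 to 543, with Ms4a1, Pax5 and Igll1 undetected. The B lineage sum came mostly from Cd79b, detected on every array at mean log2 levels of 8.87 in controls and 8.86 in MEC1 mice. Vpreb1 was detected on 2 control arrays and 0 MEC1 arrays. The part of the monocyte, erythroid, stromal and osteoblast levels in the lower member signal was not tested.

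**Figure D5:**
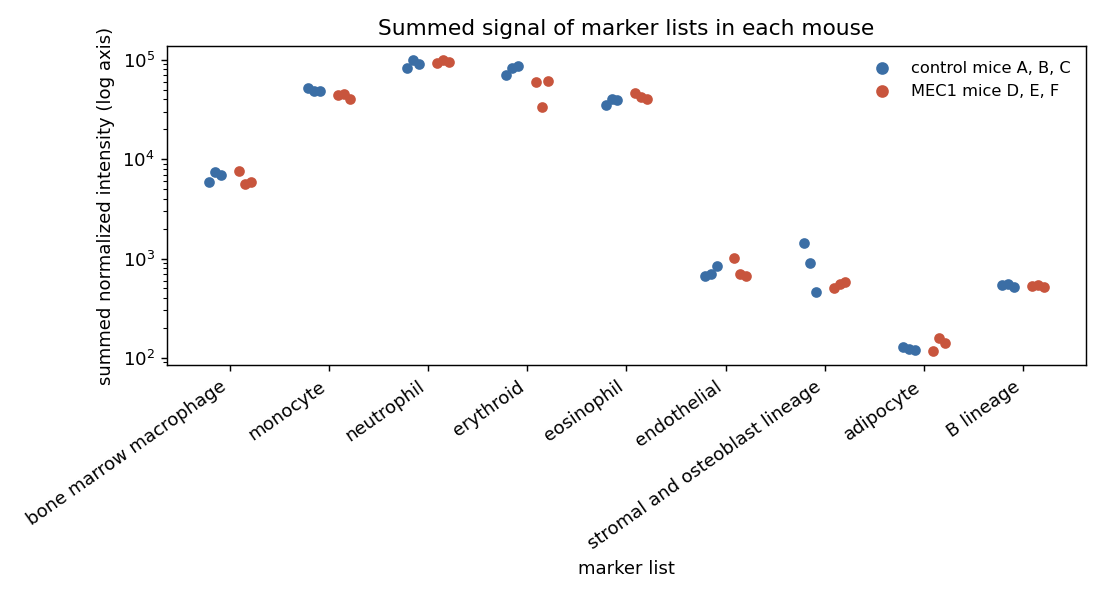
Summed normalized intensity (y axis, log scale) of 9 lists of cell type markers (x axis) in each control mouse (blue) and each MEC1 mouse (red). Macrophage markers overlapped between groups (5947 to 7468 against 5685 to 7608), while erythroid markers were lower in each MEC1 mouse (33808 to 61751 against 70371 to 86690).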

How the data were processed

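Per the labels' protocols, total RNA of 6 mice was labelled as biotinylated cRNA and hybridised to Illumina mouse bead arrays, and the submitters' processing notes name GenomeStudio. The authors deposited a table of raw intensity per probe, linear and not normalized, with a detection p-value, per the file headers. The authors' series matrix intensity values, whose normalization is not given in the sources used here, were tried as an alternative.

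Background correction and quantile normalization used neqc (offset 16) in limma 3.58.1 under R 4.3.3, on a log2 scale. The 16460 of 45281 probes detected (p-value under 0.05) on 3 or more of 6 arrays were fitted by lmFit with a group term and eBayes (trend, robust), two-sided, with Benjamini-Hochberg adjustment over all of them. Symbols came from the platform annotation, updated by Entrez ID (34885 probes with 1 symbol, 18 with several, 10378 unnamed here). The brightest tested probe stood for a gene, except for members, of which every probe is given. In the pathway lists, called genes and up to 4 genes with the smallest p are named. Marker levels are sums of normalized intensity less the offset, over the brightest probe of each gene. The steps were tested on simulated data. Members and lists were chosen with earlier results of these data known. P-values measure the spread between these mice. Chip position and group cannot be fully told apart. Letters name single mice and pair none.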

Additional observations from a re-analysis of the deposited data

How the results depend on the processing

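Calls over all probes, calls among the 18 member probes and calls in the pathway lists numbered 253, 7 and 1. With median scaling they numbered 2111, 11 and 4. With eBayes without trend and robust variance they were 95, 4 and 0 (3218, 10 and 5 at an unadjusted p under 0.05 in limma). With chip position as a covariate they were 0, 0 and 0 (2397, 6 and 8 at an unadjusted p under 0.05 in limma). Leaving out 1 mouse gave 5 to 1210, 2 to 11 and 0 to 1, and the other 6 alternatives (7 for the lists) kept each count within 1.5 times. No member changed sign except with chip position as a covariate, where the probes of Apoc2 gave 0.33 and 0.21 and Abcg1 0.66. That setting also gave 0.10 for Gpr183, 0.028 for Hsd3b7, 0.18 for Rxra, 0.37 for Pparg, 0.14 for Abca3, 0.86 for Abca7, 0.36 for Lrp1 and 0.043 for Npc1. Median scaling gave -0.17 for Cyp11a1, -0.32 for Ppard, -0.26 for Apom, -0.28 for Lrpap1, -0.14 for Osbp and -0.42 for Scarb2. Leaving out 1 mouse gave -0.42 to 0.072 for Rxra, -0.21 to 0.12 for Pparg, -0.014 to 0.96 for Abca2 and -0.26 to 0.23 for Abca7. None of these sign changes passed the test, and the cause was not tested. Apoe and Cyp27a1 ILMN_2960114 were each called in 14 of 15 settings, and Nr1h3, at 0.80 to 2.26, in 5 of 14. Dim signal limits Apoc1, Nr1h3 and the weaker Abca9 probes. No paired analysis was possible because no replicate letter is shared between the groups.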
